A study of Homo sapiens with 6 samples.

Results

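The EGFR family is a set of 4 receptor tyrosine kinases, EGFR, ERBB2, ERBB3 and ERBB4, taken here with 4 of their ligands, AREG, EREG, HBEGF and TGFA. These 8 genes, of 19974 protein-coding genes on chromosomes 1 to 22 and X, were chosen by name after earlier results of these data had put EGFR among the genes with most peaks at 24 h. For each gene, every accessible region (peak) lying inside it or within 100 kb of it was taken from each peak list. The windows held 5 peaks of the vehicle list of 7103, 20 of the T3 6 h list of 12385 and 90 of the T3 24 h list of 60661. Peak counts are what drew attention to the family, so they are given as a description.

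The cells were Nthy-ORI, a human line immortalised from normal thyroid epithelium, and accessible DNA was mapped by ATAC-seq, where a transposase (Tn5) inserts sequencing adapters into open chromatin. All cells spent 24 h without hormone, in medium lacking phenol red and with charcoal-stripped serum, before 10 nM of the active thyroid hormone triiodothyronine (T3) or its NaOH vehicle was added. There were 2 samples of vehicle (labelled 6 h), 2 of 6 h of T3 and 2 of 24 h of T3, each from the nuclei of 50000 cells. Because vehicle is labelled 6 h, the effect of hormone and that of time in culture cannot be told apart in the 24 h group. Whether replicates were separate cultures is not stated, and Nthy-ORI is 1 cell line.

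The EGFR family receptors sit in the plasma membrane and signal as pairs once a ligand binds, mainly through the RAS to ERK cascade and the PI3K route. The ligands are made as membrane-anchored precursors that proteases of the ADAM family cut free, so a cell can stimulate itself and its neighbours. In thyroid follicular cells EGF receptor signalling is known to drive proliferation and to lower differentiated functions such as iodide handling.

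Each group had 1 list, holding only peaks found in both of its samples, so no value is replicated per condition and no p-value is given. The lists hold no read depth, and a gene without a listed peak is not shown to be closed. Agreement between the samples of a group differed between the lists. The median distance between the 2 replicate summits of a peak was 180 bp in vehicle, 222 bp at 6 h and 46 bp at 24 h. The Spearman correlation of the 2 replicate signals was 0.051 in vehicle, -0.285 at 6 h and 0.688 at 24 h. Of the thyroid follicular markers, PAX8, NKX2-1, FOXE1, HHEX and TSHR had a 24 h peak within 1 kb of a gene boundary, and TG and SLC5A5 had none. The counts at 24 h were 3 of 5 for epithelial, 4 of 4 for mesenchymal, 1 of 3 for leukocyte, 0 of 2 for endothelial and 0 of 2 for C cell markers. The vehicle list had such a peak at none of the markers named here and the 6 h list at PAX8, KRT8 and ZEB1. Of all protein-coding genes, 1.34% had one in vehicle, 10.8% at 6 h and 60.8% at 24 h. What part the length and replicate agreement of the lists had in the counts below was not tested.

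At the starts of 7 of the 8 genes, RefSeq (GRCh38.p14) gives 9 promoter windows, each from 250 bases before a start to 50 after it. The 4 windows below are shown because they pair a window that a 24 h peak covered with a related one that no peak touched: the first and second start of EGFR, and the neighbouring ligand genes AREG and EREG. Each is written 5′ to 3′ along the gene, all 4 on the plus strand, with motif matches on either strand in capitals.
EGFR, first start, chr7:55018767-55019066, covered at 24 h: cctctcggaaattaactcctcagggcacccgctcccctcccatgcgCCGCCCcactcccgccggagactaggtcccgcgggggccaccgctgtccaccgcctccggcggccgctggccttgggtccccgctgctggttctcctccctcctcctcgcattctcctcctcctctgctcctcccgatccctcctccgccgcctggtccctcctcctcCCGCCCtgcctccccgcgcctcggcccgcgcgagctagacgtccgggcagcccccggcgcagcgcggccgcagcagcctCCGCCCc
EGFR, second start, chr7:55109589-55109888, not covered: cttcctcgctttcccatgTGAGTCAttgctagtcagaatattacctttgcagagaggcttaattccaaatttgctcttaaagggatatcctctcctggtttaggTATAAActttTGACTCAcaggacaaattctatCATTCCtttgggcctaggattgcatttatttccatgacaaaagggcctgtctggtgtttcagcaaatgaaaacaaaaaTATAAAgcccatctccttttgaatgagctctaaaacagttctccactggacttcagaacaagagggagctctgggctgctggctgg
AREG, chr4:74444886-74445185, covered at 24 h: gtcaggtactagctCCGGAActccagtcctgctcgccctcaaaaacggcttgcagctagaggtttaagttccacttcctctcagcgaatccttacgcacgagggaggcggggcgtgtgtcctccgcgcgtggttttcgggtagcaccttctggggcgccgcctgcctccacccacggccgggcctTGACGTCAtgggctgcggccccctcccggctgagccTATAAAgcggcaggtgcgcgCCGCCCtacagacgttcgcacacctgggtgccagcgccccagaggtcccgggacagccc
EREG, chr4:74364895-74365194, not covered: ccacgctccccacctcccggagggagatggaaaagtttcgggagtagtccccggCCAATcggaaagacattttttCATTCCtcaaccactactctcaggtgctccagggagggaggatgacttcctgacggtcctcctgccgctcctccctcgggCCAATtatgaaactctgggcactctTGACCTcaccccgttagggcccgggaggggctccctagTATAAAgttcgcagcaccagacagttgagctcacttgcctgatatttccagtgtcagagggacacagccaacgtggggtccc
The capitals in the first EGFR window mark 3 GC boxes (GGGCGG, or CCGCCC on the other strand), and none of the other motifs searched was found there. In the second EGFR window they mark 2 AP-1 motifs (TGANTCA), 1 TEAD motif (GGAATG, here as CATTCC) and 2 TATA boxes (TATAAA). The AREG window holds an ETS motif (CCGGAA), a cyclic AMP response element (TGACGTCA), a TATA box and a GC box. The EREG window holds 2 CCAAT boxes, a TEAD motif, a TATA box and 1 thyroid hormone receptor hexamer (AGGTCA, here as TGACCT). These are matches of letters, not sites shown to be bound.

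The same letters occurred in many promoters. Of all 35116 RefSeq windows, 45.0% held a GC box, 34.6% CCAAT, 17.2% the ETS motif, 14.03% the TEAD motif, 13.8% the receptor hexamer, 11.5% the TATA box, 7.71% the AP-1 motif and 1.85% the cyclic AMP element. Of the 22156 windows of protein-coding genes alone, 56.3% held a GC box, 34.6% CCAAT, 21.2% the ETS motif and 12.2% the TEAD motif. The receptor hexamer was in 11.9% of these, the TATA box in 9.46%, the AP-1 motif in 6.16% and the cyclic AMP element in 2.26%. Among the windows of the 8 genes, the GC box was in 5 of 9, the ETS motif in 4, the TATA box in 3, and the AP-1 motif, the receptor hexamer, TEAD and CCAAT in 2 each. The second hexamer was at HBEGF, 42 bases after its start, and the second AP-1 match at ERBB2, 222 bases before its start. The direct repeat of 2 hexamers spaced by 4 bases, the classical thyroid hormone response element, was in 0 of 9 windows and in 0.0199% of all windows.

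No window of the 9 was touched by a vehicle or a 6 h peak, and 6 of 9 were covered in full by a 24 h peak. Of 22156 windows of protein-coding genes, vehicle peaks touched 1.02%, 6 h peaks 10.0% and 24 h peaks 56.3%. The covered windows were the first of EGFR (75.3% G and C), both of TGFA (75.3% and 63.0%), HBEGF (75%), AREG (66.3%) and ERBB2 (60.7%). The windows not covered were ERBB4 (59.0%), EREG (57.7%) and the second of EGFR (42.0%). The covered windows of the family thus all had more G and C than the 3 that were not covered. Over all protein-coding windows the median was 65.7% for those touched at 24 h and 55.3% for the rest.

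**Figure D1:**
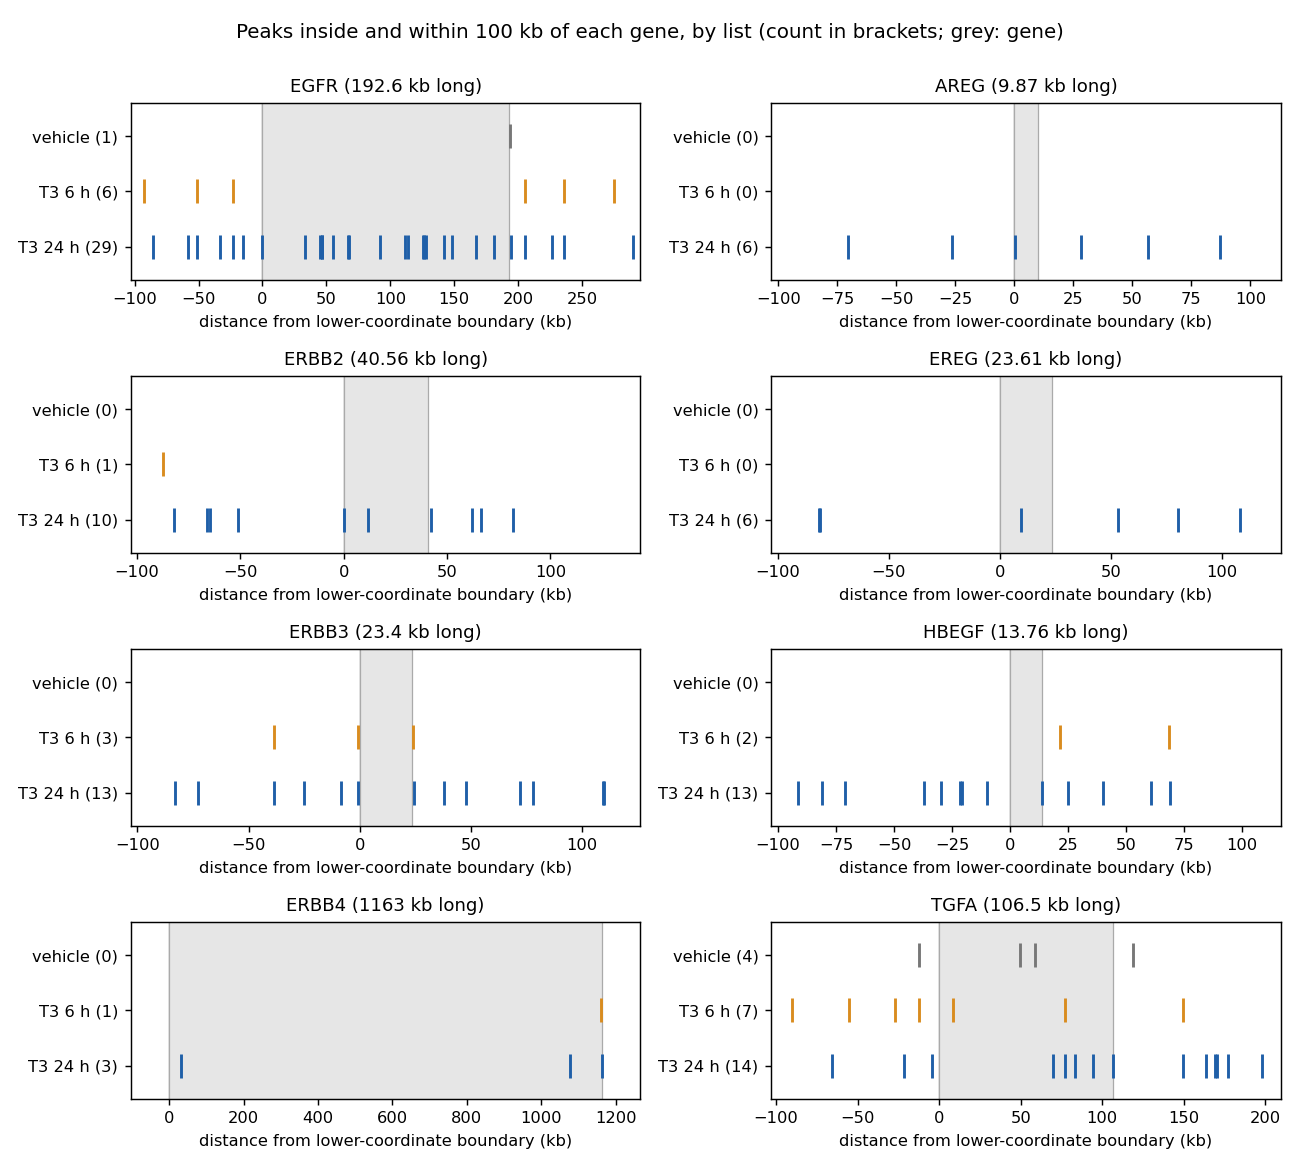
Each tick is a peak, placed by its distance in kb from the lower-coordinate boundary of the gene (grey band), with 1 row per list and the count in brackets. EGFR carries 1 tick in vehicle, 6 at 6 h and 29 at 24 h, 17 of the last inside the gene beyond 1 kb of its boundaries; ERBB4, the longest gene, carries 3 at 24 h.

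EGFR, the receptor for EGF, AREG, TGFA and other ligands, had the most peaks of the 8 genes at 24 h. EGFR spans 192612 bp at chr7:55019017-55211628, and no other protein-coding gene lies within 100 kb of it. It had 1 peak in vehicle, 6 at 6 h and 29 at 24 h. The 29 peaks of 24 h comprised 6 upstream of the start, 1 at the start, 17 inside the gene and 5 beyond its far end. All 6 peaks of the 6 h list lay outside the gene, 3 on each side. The 24 h peaks of EGFR lay a median of 11.5 kb apart, and the first inside the gene was 33.3 kb from the start.

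The peak at the EGFR start, chr7:55018524-55020422, was listed at 24 h and covers the first promoter window printed above. Its deposited signal was 9.66 in one replicate and 7.11 in the other, which sum to 16.8 and stood at percentile 70.9 of the 24 h list. Signals carry no stated normalisation, so each is placed by its percentile within its own list and never compared between lists. No 24 h peak touched the second window, which has the AP-1 and TATA matches. The nearest one, chr7:55110891-55111432, lay 1.38 kb downstream of that inner start, with a signal of 14.8 (5.61 and 9.21 in the replicates).

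The strongest peak at EGFR was upstream rather than at the start. At chr7:54967337-54967972, 51.5 kb before the start, the 24 h list had a signal of 39.6 (17.9 and 21.7 in the replicates), at percentile 99.6. The 6 h list had an overlapping peak there, chr7:54967390-54968184, with a signal of 10.9 at percentile 67.4 of that list. The replicates of that 6 h peak stood far apart, at 7.22 (percentile 93.4) and 3.73 (percentile 8.42). At 24 h both replicates were at percentile 99.4 or above.

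Strong 24 h peaks were spread along the whole EGFR locus. In all, 8 of the 29 stood above percentile 90, and the 29 signals ran from 7.98 to 39.6 with a median of 14.8. Beyond the far end lay peaks with signals of 30.4 (14.8 and 15.6) at 226 kb from the start and 29.7 (15.1 and 14.6) at 289 kb. The latter lay nearer to a boundary of LANCL2 than to one of EGFR. Inside the gene the strongest were 29.1 (13.2 and 15.8) at 167 kb, 26.3 (16.1 and 10.3) at 114 kb and 25.3 (9.27 and 15.98) at 55.2 kb. Upstream, signals of 24.9 were listed both at 85.6 kb and at 33.4 kb before the start. The peak at the start ranked below all 8 of these.

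Most EGFR peaks of the 6 h list recurred at 24 h. Of the 6 peaks at 6 h, 4 were shared with the 24 h list, beside 48.9% of the whole 6 h list. They matched 4 of the 29 peaks at 24 h, from 51.5 kb before the start to 236 kb after it, beside 9.94% of the whole 24 h list shared with 6 h. Shared means an overlap of at least 50% of the shorter peak. The strongest 6 h peak of EGFR, chr7:55254823-55256438, with a signal of 13.95 (3.49 and 10.5) at percentile 91.9, was among the shared ones. The single vehicle peak, chr7:55211946-55213842, had a signal of 9.58 (3.43 and 6.15) and was shared with a 24 h peak of 9.71 but with no 6 h peak. That pair also shows the effect of the 1 kb limit. The vehicle peak lay 852 bp beyond the far end of EGFR and counts as a boundary peak, while its 24 h partner lay 1469 bp beyond it and does not.

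**Figure D2:**
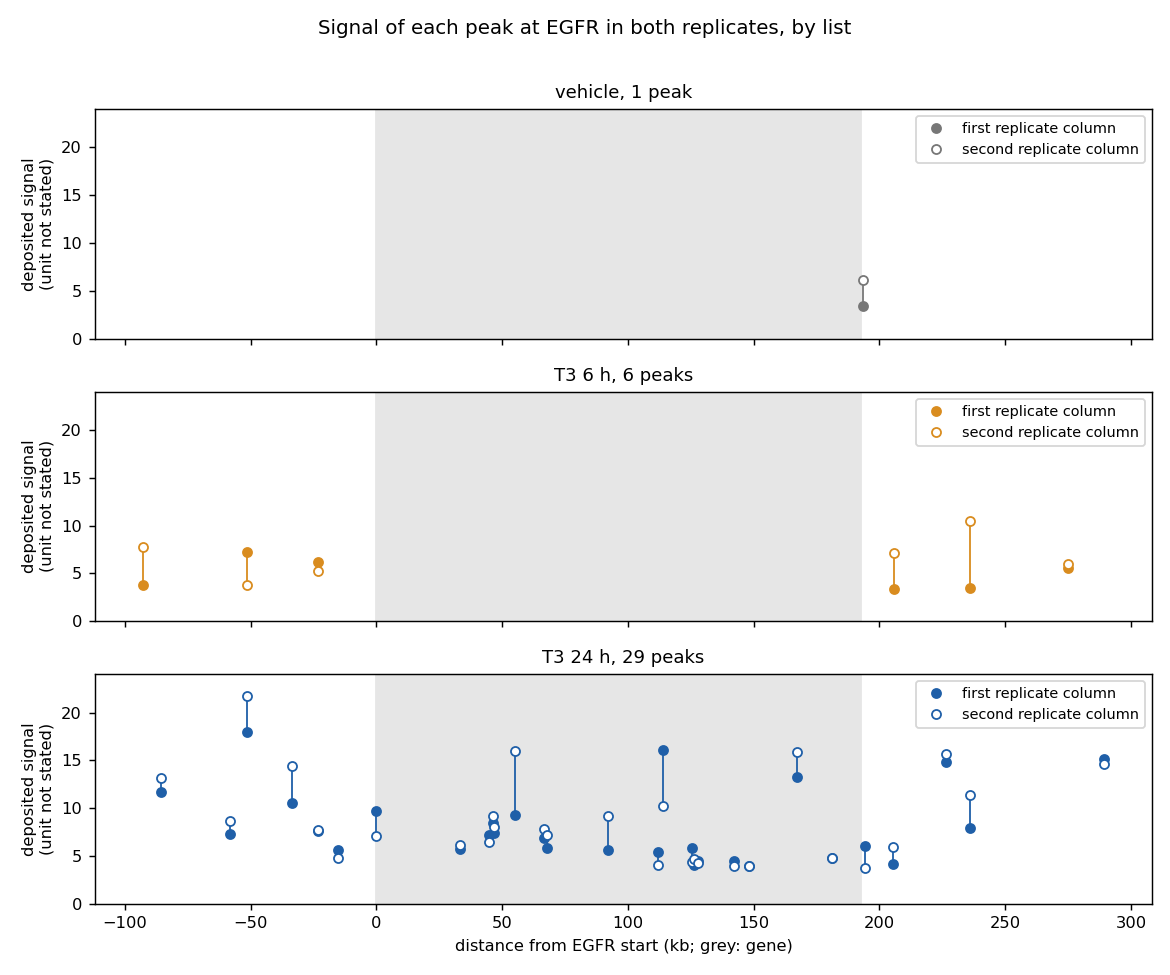
Each peak at EGFR is placed by its distance in kb from the EGFR start (horizontal) and by its deposited signal, of unstated unit, in the first (filled) and second (open) replicate column, joined by a line; panels from top to bottom are vehicle, T3 6 h and T3 24 h. At 24 h the highest pair, 17.9 and 21.7, stands 51.5 kb before the start, and most pairs lie close together, while at 6 h several pairs lie far apart.

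The 2 replicates ranked the 24 h peaks of EGFR alike and its 6 h peaks differently. The percentiles of a peak in the 2 replicates differed by a median of 8.58 points for the 29 peaks of 24 h, against 12.7 points for the whole 24 h list. For the 6 peaks of 6 h the median was 70.9 points, against 35.8 for the whole 6 h list, and 4 of the 6 differed by more than 50 points. At an IDR (irreproducible discovery rate) of at most 0.01 in place of the deposited 0.05, 22 of the 29 peaks and 3 of the 6 were left. The 6 h peaks of EGFR thus rest on replicates that ranked them differently. This was not particular to EGFR, since the replicate signals of the whole 6 h list had a Spearman correlation of -0.285.

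Set against genes of similar length, EGFR had a high peak density in both T3 lists. Density is the number of peaks inside the gene and within 100 kb of it, per 100 kb of that stretch, and similar genes had 0.5 to 2 times its length on the same chromosome. In vehicle EGFR had 0.25 peaks per 100 kb and the 152 similar genes a median of 0.29, with 64 of them lower. At 6 h EGFR had 1.53 and the median gene 0.58, with 142 of 152 lower, but inside the gene body EGFR had no 6 h peak. At 24 h EGFR had 7.39 and the median gene 2.90, with 151 of 152 lower. KIAA1549 (7.43) stood just above EGFR and CHLSN (7.22) just below. Within the gene body alone the density at 24 h was 8.83 for EGFR and 2.47 for the median gene. These are ranks within single lists, and genes are not replicates.

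An alternative added after seeing the data left out every 24 h peak within 1 kb of a protein-coding start that has a promoter window. EGFR then had 28 peaks, and all 152 similar genes had fewer per 100 kb. When each list was shortened to its 7103 strongest peaks, EGFR had 8 at 24 h, and again all 152 genes had fewer. With only peaks whose replicate summits lay within 100 bp, 18 were left and 94.1% of the genes had fewer.

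Across the 2954 protein-coding genes of 0.5 to 2 times its length on all chromosomes, the densities in the 3 lists most like those of EGFR were at POU2F2, NFATC2, RIPOR3, PCDHGA10 and CCDC85C. Likeness was the largest difference in any of the 3 lists, from 0.31 peaks per 100 kb for POU2F2 to 0.54 for CCDC85C. POU2F2 had 0, 4 and 24 peaks in vehicle, at 6 h and at 24 h, and NFATC2 had 0, 5 and 29.

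ERBB2, the receptor without a known ligand of its own that pairs with the other 3, had 0 peaks in vehicle, 1 at 6 h and 10 at 24 h. Its locus, chr17:39688094-39728658, is crowded, with 9 other protein-coding genes within 100 kb, among them GRB7, PGAP3 and MIEN1. The peak at its start, chr17:39687823-39688413, was listed at 24 h with a signal of 20.6 (10.4 and 10.2 in the replicates) at percentile 82.2. Its replicate summits lay 2 bp apart. The start of PGAP3 lies 4 bp from its position, so the peak cannot be assigned to 1 of these genes. The single 24 h peak inside ERBB2 lay 11.9 kb from the 1 RefSeq start used here, with a signal of 9.07 at percentile 16.3. Whether it lies at another start of ERBB2 was not examined. At 4.16 peaks per 100 kb, ERBB2 was close to the median of 4.29 for 361 similar genes on chromosome 17, of which 48.5% were lower. That rank moved with the processing. It was 25.5% at an IDR of at most 0.01, which left ERBB2 5 peaks, 72.3% with replicate summits within 100 bp, which left 9, and 0% with lists of equal length, which left 0.

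ERBB3, the receptor with little kinase activity that couples the family to PI3K, had 0 peaks in vehicle, 3 at 6 h and 13 at 24 h. It was the only one of the 8 genes with a boundary peak at 6 h, and it had 2. The one at its lower-coordinate end, chr12:56079081-56080379, had a signal of 9.93 (4.0 and 5.93) at percentile 43.9, and the one at its upper end, chr12:56103921-56105456, had 9.67 (3.57 and 6.10) at percentile 35.9. Both were shared with the 24 h list. There the lower-end peak, chr12:56078996-56080327, had a signal of 25.8 (17.3 and 8.52) at percentile 91.5, and the upper-end peak, chr12:56104003-56104978, had 29.2 (13.7 and 15.5) at percentile 95.3. The upper-end peak lies 113 bp from the start of PA2G4, a growth-regulating protein that binds ERBB3, and cannot be assigned to 1 of these genes. By the mean of their replicate summits, the boundary peaks of ERBB3 lay 842 to 941 bp outside the gene in both lists, just inside the 1 kb limit.

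By the mean of its replicate summits, no peak of any list was placed inside ERBB3 itself. The lower-end peaks of 6 h and 24 h still reached across the lower boundary of ERBB3, at chr12:56080108. Its window holds 13 other protein-coding genes, and 8 of its 13 peaks at 24 h lay within 1 kb of the start of one of them. With 5.82 peaks per 100 kb at 24 h, 81.7% of 388 similar genes had fewer. With peaks within 1 kb of a protein-coding start that has a promoter window left out, 5 peaks remained. Of the similar genes, 43.0% then had fewer. No window was available for ERBB3, so its own lower-end peak was kept among the 5. At 6 h ERBB3 had 1.34 per 100 kb, with 87.1% of the similar genes lower. At an IDR of at most 0.01 it had 0 peaks at 6 h. That rank was 85.6% with replicate summits within 100 bp, which left 1 peak, and 63.9% with lists of equal length, which left 1.

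ERBB4, the neuregulin receptor, is the longest of the 8, with 1163086 bp at chr2:211375717-212538802, and had the fewest peaks at 24 h among them. It had 0 peaks in vehicle, 1 at 6 h and 3 at 24 h. The 24 h peak at its start, chr2:212537155-212538502, had a signal of 10.0 (5.25 and 4.78), at percentile 28.4, the lowest of the family's boundary peaks at 24 h. Its strongest peak lay 86.9 kb inside the gene and had a signal of 31.9 (10.95 and 21.0) at percentile 97.4. The 6 h peak, 2.09 kb inside the gene with a signal of 9.35, was not shared with the 24 h list. At 0.22 peaks per 100 kb, ERBB4 was below the median of 0.90 for the 19 genes of similar length on chromosome 2, of which 6 were lower.

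The ligand genes AREG and EREG lie side by side on chromosome 4 and had no peak in vehicle or at 6 h. AREG encodes amphiregulin and EREG epiregulin, both EGFR ligands. At 24 h each had 6 peaks in its window, and 4 of these were the same peaks, since the windows overlap. AREG had a start peak, chr4:74444800-74445710, with a signal of 15.4 (6.16 and 9.28) at percentile 65.6, which covers the AREG window printed above. EREG had no peak within 1 kb of either boundary and none touching its printed window. Its strongest peak, chr4:74374573-74374920, lay inside EREG, 9.60 kb from the start, with a signal of 26.3 (10.4 and 15.96) at percentile 92.2. At 24 h AREG had 2.86 peaks per 100 kb and EREG 2.68, with 74.8% of 147 and 74.5% of 243 similar genes on that chromosome lower.

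HBEGF, the heparin-binding ligand of EGFR and ERBB4, had 0 peaks in vehicle, 2 at 6 h and 13 at 24 h. Its start peak at 24 h, chr5:140346316-140346928, had a signal of 12.9 (7.57 and 5.33) at percentile 52.7, with the replicate summits at the same base. Its strongest peaks lay outside it. One, 55.0 kb upstream of the start, had a signal of 29.5 (15.6 and 13.9) and was shared with a 6 h peak of 9.08. It lay 235 bp from the start of ANKHD1-EIF4EBP3, so it cannot be assigned to HBEGF. The other, 51.0 kb downstream of the start, also had 29.5 (12.9 and 16.5) and was shared with no 6 h peak. It lay nearer to a boundary of PFDN1 than to one of HBEGF. No HBEGF peak lay inside the gene beyond 1 kb of its start in any list. The window holds the genes CYSTM1, PFDN1, SLC4A9 and ANKHD1, and 2 of the 13 peaks at 24 h lay at a start of another gene. By nearest protein-coding gene boundary, HBEGF was the closest gene for 2 of the 13. Its 6.08 peaks per 100 kb at 24 h stood beside a median of 4.16 for 251 similar genes on chromosome 5, of which 83.3% were lower.

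TGFA, transforming growth factor alpha and an EGFR ligand, was the member with most vehicle peaks, 4 of the 5 in all windows. It spans chr2:70447284-70553826, with no other protein-coding gene within 100 kb. It had 4 peaks in vehicle, 7 at 6 h and 14 at 24 h. By nearest protein-coding gene boundary, TGFA was the closest gene for 4, 6 and 9 of these. The vehicle peaks had signals from 9.27 to 10.7 and were spread from 12.4 kb upstream of the start to 119 kb downstream of it. Of these 4, 1 was shared with the 6 h list, at 119 kb, and none with the 24 h list; of the whole vehicle list 31.9% were shared with 6 h and 32.7% with 24 h. None of the 4 had its replicate summits within 100 bp.

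At 6 h the strongest TGFA peak, chr2:70524148-70525919, lay 29.5 kb inside the gene, with a signal of 13.7 (7.30 and 6.40) at percentile 91.2. It was shared with the strongest TGFA peak at 24 h, chr2:70524148-70525560, with a signal of 26.6 (12.8 and 13.8) at percentile 92.5. The second shared site lay 43.0 kb upstream of the start, with signals of 23.9 (10.0 and 13.9) at 24 h and 10.9 (6.18 and 4.72) at 6 h. The start peak of 24 h, chr2:70552547-70554421, had 16.8 (5.38 and 11.5) at percentile 71.1, and its replicate summits lay 900 bp apart.

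The density of peaks at TGFA was high among its similar genes in vehicle and at 6 h as well as at 24 h. In vehicle it had 1.30 peaks per 100 kb and the 413 similar genes of chromosome 2 a median of 0, with 411 lower. At 6 h it had 2.28 and they had a median of 0.38, with all 413 lower. At 24 h it had 4.57 and they had 2.62, with 86.0% lower. At an IDR of at most 0.01, TGFA had 2 peaks in vehicle, 4 at 6 h and 8 at 24 h. With lists of equal length it had 4, 5 and 2 by summed signal, so the order of the lists turned.

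**Figure D3:**
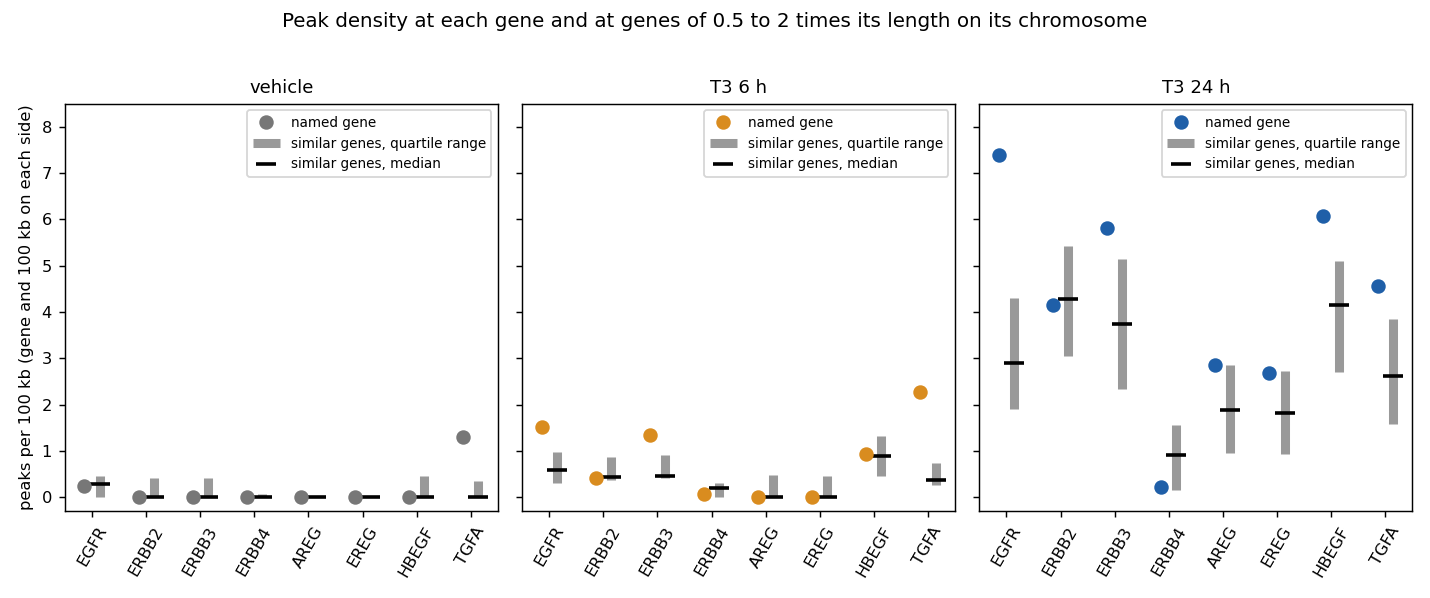
Peaks per 100 kb of gene and 100 kb on each side are shown for each named gene (coloured point) beside the median (black bar) and quartile range (grey bar) of genes of 0.5 to 2 times its length on its chromosome, in panels for vehicle, T3 6 h and T3 24 h. At 24 h EGFR, at 7.39, lies farthest above its similar genes, whose median is 2.90, while ERBB2 lies at 4.16 near its median of 4.29 and ERBB4 at 0.22 below its median of 0.90; TGFA stands above its similar genes in all 3 panels.

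The lists were then compared in pairs over the whole family. A peak called gained is listed under the first condition with no shared peak under the second, and lost is the converse; for a gene, a gained boundary peak means one in the first list and none in the second. ERBB3 alone of the 8 gained a boundary peak at 6 h against vehicle, which 10.3% of all protein-coding genes did, and EGFR alone lost one, which 0.846% did. At least 1 gained peak lay in the windows of 6 of the 8, against 64.5% of all genes. EGFR and TGFA had 6 gained peaks each, ERBB3 3, HBEGF 2, ERBB2 and ERBB4 1 each, and AREG and EREG none. TGFA had 3 lost peaks and EGFR 1. With 1 member called in each direction these counts do not set the family apart.

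At 24 h against vehicle, 6 of the 8 genes gained a boundary peak (ERBB2, ERBB3, ERBB4, AREG, HBEGF and TGFA), and 59.7% of all protein-coding genes did. None lost one, against 0.22% of all genes. EGFR is not among the 6 only because of its vehicle peak at the far end. All 8 had a gained peak in the window, as 97.4% of all genes had. The numbers of gained peaks were 28 at EGFR, 14 at TGFA, 13 each at ERBB3 and HBEGF, 10 at ERBB2, 6 each at AREG and EREG and 3 at ERBB4. TGFA alone had lost peaks, and it had 4.

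At 24 h against 6 h, 6 of the 8 again gained a boundary peak (EGFR, ERBB2, ERBB4, AREG, HBEGF and TGFA), against 50.5% of all genes, and none lost one, against 0.546%. All 8 had a gained peak in the window, as 97.1% of all genes had. EGFR had 25 gained and 2 lost peaks, TGFA 12 and 5, HBEGF 12 and 1, ERBB2 10 and 1, ERBB3 10 and 0, and ERBB4 3 and 1. AREG and EREG each had 6 gained and none lost. The comparisons at 24 h share their 24 h samples, and those against vehicle share the vehicle samples.

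Counted list by list, 1 of 8 genes had a boundary peak in vehicle (EGFR), 1 at 6 h (ERBB3) and 7 at 24 h (all but EREG). Of all protein-coding genes, 1.34% had one in vehicle, 10.8% at 6 h and 60.8% at 24 h. With the 24 h list shortened to the 7103 peaks of the vehicle list, ERBB3 alone kept a boundary peak at 24 h, beside 16.6% of all genes. With replicate summits within 100 bp, ERBB2, ERBB3 and HBEGF kept one at 24 h, beside 43.5% of all genes. The boundary peaks of the other 4 genes had replicate summits 115 to 900 bp apart.

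**Figure D4:**
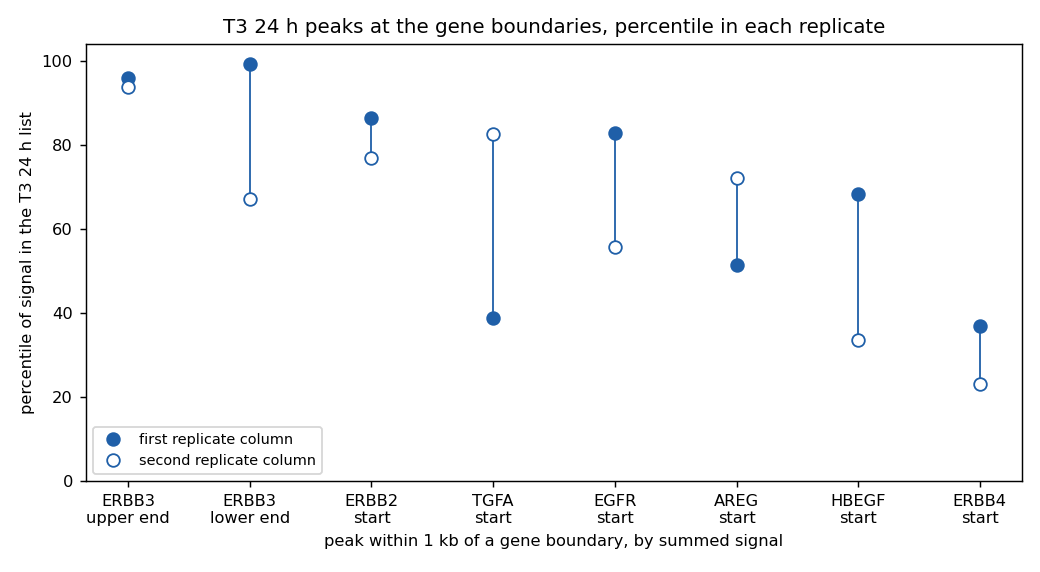
The T3 24 h peaks within 1 kb of a boundary of the named genes are ordered by summed signal, and the vertical axis gives the percentile of each within the T3 24 h list, in the first (filled) and second (open) replicate column. The ERBB3 upper-end peak, at 95.9 and 93.8, stands high in both replicates, the TGFA start peak, at 38.9 and 82.6, differs most between them, and ERBB4 stands lowest; EREG has no such peak.

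Peaks found again in another list were counted in both directions for the family and for each whole list. Of the 90 peaks at 24 h, 10 were shared with the 6 h list (11.1%, exact 95% interval 5.46 to 19.5), beside 9.94% of the whole 24 h list. Of the same 90, 1 was shared with vehicle (1.11%, 0.0281 to 6.04), beside 3.78%. Of the 20 peaks at 6 h, 10 were shared with the 24 h list (50%, 27.2 to 72.8), beside 48.9%, and 1 with vehicle (5%, 0.127 to 24.9), beside 18.1%. Of the 5 vehicle peaks, 1 was shared with the 6 h list and 1 with the 24 h list (20% each, 0.505 to 71.6), beside 31.9% and 32.7%. Each whole-list share lay inside the interval of the family, and the intervals are wide. The Clopper-Pearson intervals cover counting error only and take peaks as independent, though 29 of the 90 at 24 h lay at EGFR. They do not measure variation between samples and are no test of the family.

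The other genes of the pathway were described by boundary peaks alone. They are read beside the 1.34% of all genes with such a peak in vehicle, 10.8% at 6 h and 60.8% at 24 h. Of the 7 further ligands, BTC (signal 15.8), NRG2 (13.5) and NRG1 (12.5) had one at 24 h, and EGF, EPGN, NRG3 and NRG4 had none. NRG2, a neuregulin, was the only ligand of these with one at 6 h. Of the 4 genes that release ligands, 3 had one at 24 h: ADAM17 (23.1), the main sheddase of AREG, HBEGF and TGFA, ADAM10 (21.8) and RHBDF1 (8.60), which brings ADAM17 to the surface.

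All 6 adaptors and exchange factors had a boundary peak at 24 h and none in vehicle or at 6 h, the strongest being SOS1 (19.2), PTPN11 (19.1), SOS2 (18.9) and SHC1 (15.6). All 8 negative regulators had one at 24 h, led by the ubiquitin ligase CBLB (24.9), the receptor inhibitors LRIG3 (24.1) and LRIG1 (24.0) and the ERK phosphatase DUSP6 (21.2). LRIG3 also had one in vehicle, and SPRY4 and DUSP6 at 6 h. These counts have no test, and 24 h boundary peaks were common among all genes.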

How the data were processed

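The 6 ATAC-seq samples form 3 groups, and for each group the authors deposited 1 list of peaks found in both samples. The submitters' processing notes name the build hg38 and the tools Trim Galore, Bowtie2, MACS2, DiffBind and CASAVA 1.7. For the settings, the Tn5 shift and duplicate handling, the entry is: not given in the sources used here. Each list has the 20 columns of IDR output. The deposited score is the scaled IDR, a deposited −log10 column gives the IDR itself, and the deposited summed signal adds both replicate signals, of unstated normalisation. The replicate columns carry no sample number, and 0 columns belonged to other samples. Depth is unknown.

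Each peak was placed at the mean of its replicate summits. A boundary peak lay within 1 kb of either end of a gene. Overlap of at least 50% of the shorter peak counted as shared. Genes and promoter windows came from RefSeq GRCh38.p14, which shares its chromosome sequences with hg38; strand came from the promoter table, which matched 7 of the 8 genes and not ERBB3. Motifs were searched on both strands as plain letters, and the cyclic AMP element was added after the sequences were seen. Apart from the repeat, which contains the receptor hexamer, no motif searched lies within another.

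The genes named were the 8, the strongest peak of each, up to 4 genes per pathway list by boundary peak signal, neighbours in density and the 5 genes most like EGFR; further EGFR peaks above percentile 90 were named after their values were seen. The 8 genes and all lists were chosen with earlier results of these data known. Marker genes were described by boundary peaks, and 1 marker and 1 pathway list are not reported here. Intervals are exact Clopper-Pearson at 95%. Python 3.11.15, numpy 2.4.6, pandas 2.3.3, scipy 1.17.1 and matplotlib 3.10.9 were used, overlaps were checked against bedtools 2.31.1, and the code was tested on simulated data. Alternatives were a stricter IDR, a limit on summit distance, lists of equal length, other windows, flanks, overlaps and length ranges, gene starts alone, and density without peaks near starts. The last 2 were added after seeing the data.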

Additional observations from a re-analysis of the deposited data

How the results depend on the processing

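At 24 h, 94.1% to 100% of similar genes had fewer peaks per 100 kb than EGFR under the alternatives run, while its count of peaks moved with the lists. The main values for vehicle, 6 h and 24 h were 1, 1 and 7 genes of the family with a boundary peak and 1, 6 and 29 peaks at EGFR. Of 116 alternative values for EGFR and the family counts, 64 stayed close to the main value and 52 moved; for single genes, 424 of 623 stayed close.

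At an IDR of at most 0.01 the genes of the family with a boundary peak numbered 0 in vehicle, 0 at 6 h and 7 at 24 h. Of all protein-coding genes, 0.461%, 3.59% and 55.1% had one. EGFR had 0 peaks in vehicle and 3 at 6 h. It then had 3 gained and 0 lost peaks at 6 h against vehicle, 1 lost at 24 h against 6 h, and 100% of similar genes had fewer peaks per 100 kb at 24 h. With replicate summits within 100 bp the genes with a boundary peak numbered 0 in vehicle, 1 at 6 h and 3 at 24 h. Of all protein-coding genes, 0.320%, 3.14% and 43.5% had one. EGFR then had 0, 2 and 18 peaks in vehicle, at 6 h and at 24 h, 2 gained and 0 lost at 6 h against vehicle, 18 gained at 24 h against vehicle, and 94.1% of similar genes had fewer at 24 h.

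With lists of equal length by summed signal, 1 gene had a boundary peak at 24 h, beside 16.6% of all genes. EGFR had 8 peaks at 24 h. It had 8 gained and 1 lost against vehicle, 7 gained and 5 lost against 6 h, and 100% of similar genes had fewer at 6 h and at 24 h. Equal lists here are shorter by construction. Ranked by the first replicate column, 0 genes had a boundary peak at 6 h and 1 at 24 h, EGFR had 3 peaks at 6 h (3 gained against vehicle) and 6 at 24 h (6 gained and 1 lost against vehicle, 5 gained against 6 h). Ranked by the second, 1 gene had a boundary peak at 24 h and EGFR had 6 peaks there, with 6 gained and 1 lost against vehicle and 6 gained and 4 lost against 6 h.

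With the middle of the peak as its position, 0 genes had a boundary peak in vehicle. With a window of 500 bp the numbers were 0 in vehicle and 0 at 6 h, and with 2500 bp 2 at 6 h. A flank of 50 kb left EGFR 3 peaks at 6 h, and counting inside the gene gave 0 in vehicle, 0 at 6 h and 17 at 24 h. With lengths of 0.67 to 1.5 times, 97.5% of similar genes had fewer than EGFR at 6 h, and with the gene body alone 0% did. With gene starts alone, 0 genes had a boundary peak in vehicle and 0 at 6 h, and without peaks near starts 100% of similar genes had fewer than EGFR at 24 h; both were added after seeing the data. The share of all genes with a boundary peak was not counted under the other windows, positions, replicate rankings or gene starts alone. The cause of these shifts was not tested.

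No paired analysis was possible because the replicate columns carry no number and no result comes from a test. Leaving out 1 replicate could not be done, since each deposited peak needed both, and ranking by 1 replicate column stands in for it. Depth is unknown, which limits what an absent peak can show.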

Other observations

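In the 24 h list, the replicates of the family's peaks differed most at TGFA by the median gap. At 6 h the median gap was larger at EGFR (6 peaks) than at TGFA (7 peaks). In vehicle EGFR had only 1 peak, with a gap of 61.8 percentile points. The 4 vehicle peaks of TGFA had gaps from 11.6 to 56.5 points. At 24 h the percentiles of a TGFA peak in the 2 replicates differed by a median of 25.5 points over 14 peaks, and 1 of them differed by more than 50 points. HBEGF stood at the other end, with a median of 2.65 points over 13 peaks, and the whole 24 h list had 12.7 points. Over the windows of all 8 genes, 2 of 5 peaks differed by more than 50 points in vehicle, 8 of 20 at 6 h and 1 of 90 at 24 h. In the 24 h list the replicate summits were within 100 bp of each other for 13 of 13 peaks at ERBB3, 12 of 13 at HBEGF and 7 of 14 at TGFA.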
